A study of Homo sapiens with 30 samples.

Results

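The promoters of 10 genes that mark luminal and epithelial cells were examined in MDA-MB-231, a human triple-negative breast cancer line with mesenchymal features. The genes were GATA3, FOXA1, CDH1, EPCAM, GRHL2, ESRP1, KRT8, KRT18, KRT19 and ERBB3. They were named as a list and not by a rule on measured values, but with earlier results of these data known. They are 10 of the 20098 protein-coding genes of the autosomes and chromosome X that carry a transcription start site in GENCODE release 44 lifted to the human genome build GRCh37 (hg19).

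GATA3, FOXA1 and GRHL2 are transcription factors of the luminal and epithelial programme. CDH1 encodes E-cadherin and EPCAM a membrane adhesion protein, ESRP1 is an epithelial regulator of splicing, KRT8, KRT18 and KRT19 are keratins of simple epithelia, and ERBB3 is a receptor of the EGF receptor family. In cells with a mesenchymal state these genes are commonly silenced, in the case of CDH1 by repressors such as ZEB1 and SNAI1 that bind E-box sequences and bring histone deacetylases and other corepressors. SAP30 is a subunit of the SIN3 complex, which is built on the scaffold SIN3A or SIN3B and carries histone deacetylases. H3K4me3 lies at promoters, H3K9Ac at active promoters and enhancers, and RNA polymerase II (Pol II) at genes that are transcribed or poised.

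Chromatin immunoprecipitation with sequencing (ChIP-seq) covered 3 proteins in parental cells only (SAP30, SIN3A and SIN3B) and 3 targets in both parental and SAP30-KO1 cells (Pol II, H3K4me3 and H3K9Ac). SAP30-KO1 is a CRISPR/Cas9 knockout line that the study made by mixing several single clones, and the labels name no treatment for either line. The 9 groups had 2 replicates each, which gave 18 lists of 10861 to 54622 peak summits. Nothing in the labels says whether replicates were separate cultures, so p-values measure only the spread between these libraries. A further 12 of the 30 samples (8 input and 4 histone H3) were not analysed here. The replicate had a summit within 1000 bp for 76.1% to 93.9% of summits, and on the identical base for at most 1.24%.

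A summit is the base where the peak caller of the authors placed the top of a peak. A gene was taken to have a promoter peak in a library when a summit lay within 1000 bp of one of its start sites. The best-scoring such summit was ranked in its own list, from 0% for the best peak of the list to 100% for the worst. Sequencing depth is unknown, so values carry no counting interval, and ranks were compared instead of scores. SAP30 was not profiled in SAP30-KO1 cells, so the lists hold no test of the knockout itself. At the promoter of the SAP30 gene the best H3K4me3 summit ranked at 11.3% and 22% in parental and at 23.8% and 30.3% in SAP30-KO1 libraries. Pol II there, at 10.2% and 5.41% against 3.75% and 23.9%, overlapped between the lines. So did H3K9Ac, at 11.7% and 13.7% against 9.24% and 12.3%.

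Both kinds of marker were set against the promoters. Of 12 mesenchymal markers, 9 had Pol II in both parental libraries and 9 had H3K4me3, beside 57.7% and 63.8% of all protein-coding genes. The Pol II summit at VIM, which encodes vimentin, ranked at 0.263% and 0.306%. TWIST1 and CDH2, which encodes N-cadherin, had no promoter peak in any list, and SPARC had only a weak H3K9Ac peak in 1 library. Of the 10 luminal and epithelial genes, 5 had Pol II in both parental libraries, near the share of all genes, and 8 had H3K4me3. The difference between the marker sets was not tested. The epithelial set was not uniformly without marks in this line, and the mesenchymal set was not uniformly marked.

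The stretches upstream of GATA3 and FOXA1 are shown to set a transcription factor gene with a bare canonical start beside one with marks there. GATA3 had no peak within 1000 bp of the start, while FOXA1 had SAP30 and H3K4me3 without Pol II. Each stretch is the 200 bases before the canonical start site in GRCh37, read 5′ to 3′ on the strand of the gene. They lie at chr10:8096451-8096650 (plus strand, GATA3) and chr14:38064455-38064654 (minus strand, FOXA1). The motifs searched, each on either strand, were the E-box CACCTG or its complement CAGGTG, the CCAAT box, the GC box GGGCGG and TATAAA, and capitals mark their matches.

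GATA3: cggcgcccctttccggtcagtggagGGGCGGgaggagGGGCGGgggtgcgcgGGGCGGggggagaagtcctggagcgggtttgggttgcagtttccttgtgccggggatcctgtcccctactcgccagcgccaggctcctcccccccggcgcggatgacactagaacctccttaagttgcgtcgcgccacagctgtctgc
FOXA1: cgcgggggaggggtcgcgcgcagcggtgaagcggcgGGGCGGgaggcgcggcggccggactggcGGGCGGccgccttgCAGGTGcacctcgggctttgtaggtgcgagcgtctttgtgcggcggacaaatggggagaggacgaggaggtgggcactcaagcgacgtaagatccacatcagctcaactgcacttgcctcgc

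The GATA3 stretch holds 3 GC boxes and no E-box of these letters, and the FOXA1 stretch holds 1 E-box and 2 GC boxes. Over the 10 genes, 8 had the E-box in this stretch, and GATA3 and ERBB3 had none. The E-box was present in 13.9% of the 19803 protein-coding promoters searched, in 11.6% of those with H3K4me3 in both parental libraries and in 17.9% of those with no peak in any list. CCAAT was found in 30.3% of all promoters, GGGCGG in 56.5% and TATAAA in 7.75%. A match of letters is a description of the stretch, not a bound site.

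Promoters rich in CpG usually carry H3K4me3 even where transcription is low. The ratio of observed to expected CpG in the 1000 bp either side of the start site had a median of 0.645 over the 10 genes, beside 0.638 over all protein-coding genes, 0.701 where H3K4me3 was in both parental libraries and 0.285 where no list had a peak. KRT8 had the lowest ratio of the 10 (0.365) and EPCAM the highest (0.878). GATA3, with no promoter peak, had a ratio of 0.808, above that of 85.6% of all promoters. GRHL2, the other gene with no promoter peak, had 0.663. The 2 unmarked epithelial promoters were therefore not CpG-poor, unlike most promoters without a peak.

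**Figure D1:**
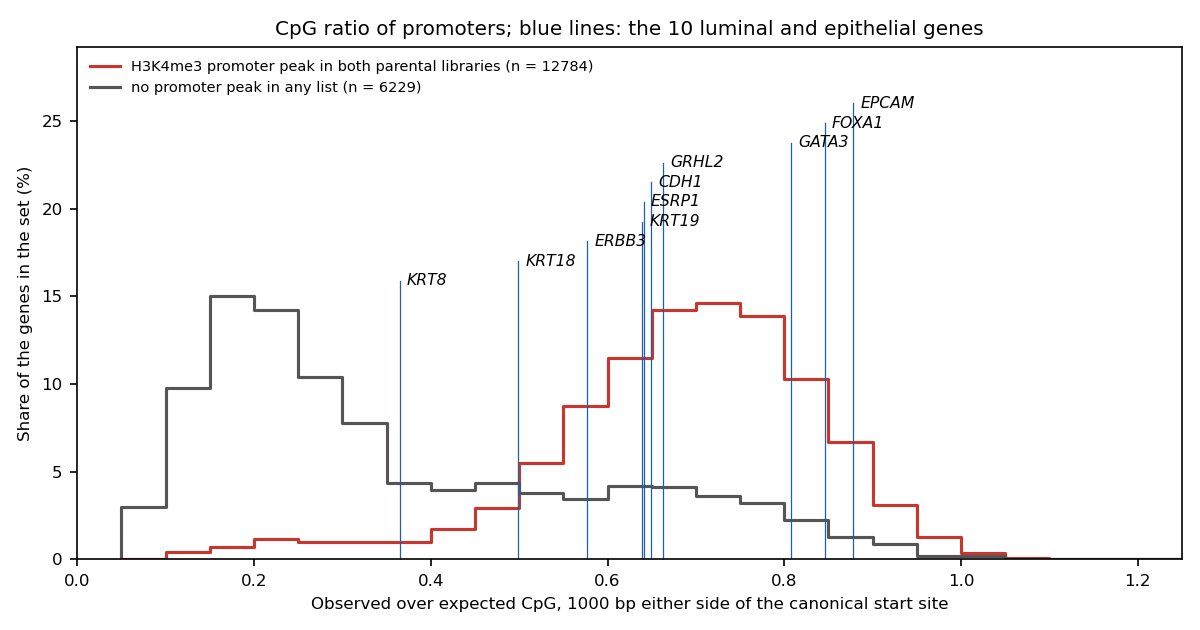
Share of promoters (%) by observed over expected CpG within 1000 bp of the canonical start site, for genes with H3K4me3 in both parental libraries and for genes with no promoter peak in any list. Blue lines mark the 10 genes, of which KRT8 (0.365) is the lowest and EPCAM (0.878) the highest, and GATA3 (0.808) lies on the right of the unmarked promoters.

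Which of these promoters were bare, marked or bound by SAP30 was asked first in parental cells. SAP30 had a promoter peak in both parental libraries at 7 of the 10 genes, where 61.2% of all protein-coding genes had one. At ESRP1, 1 of the 7, the libraries had their best summits at different places, −493 and 797 bp from the canonical start. Within 500 bp of a start site the count for SAP30 was 6. With canonical start sites only it was also 6, as KRT8 then had no SAP30 peak in replicate 1. SIN3B was present in both at 3 of 10, where 51.7% of all genes had it, and SIN3A at 0 of 10, where 31.5% of all genes had it. H3K4me3 was present at 8 of 10 (63.8% of all genes), H3K9Ac at 5 of 10 (61.4%) and Pol II at 5 of 10 (57.7%). No peak in any of the 18 lists was found at 2 of 10, GATA3 and GRHL2, as at 32.2% of all genes. The shares of SAP30 and H3K4me3 were thus near their background, and no test was made of a list of 10 genes. SIN3A reached KRT8 and KRT18 through 1 shared summit in replicate 2 (rank 36.8%), and no gene of the 10 in replicate 1. KRT8 and KRT18 also took their best SAP30, H3K4me3, H3K9Ac and Pol II summits from the same place, and each counted as a gene above.

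**Figure D2:**
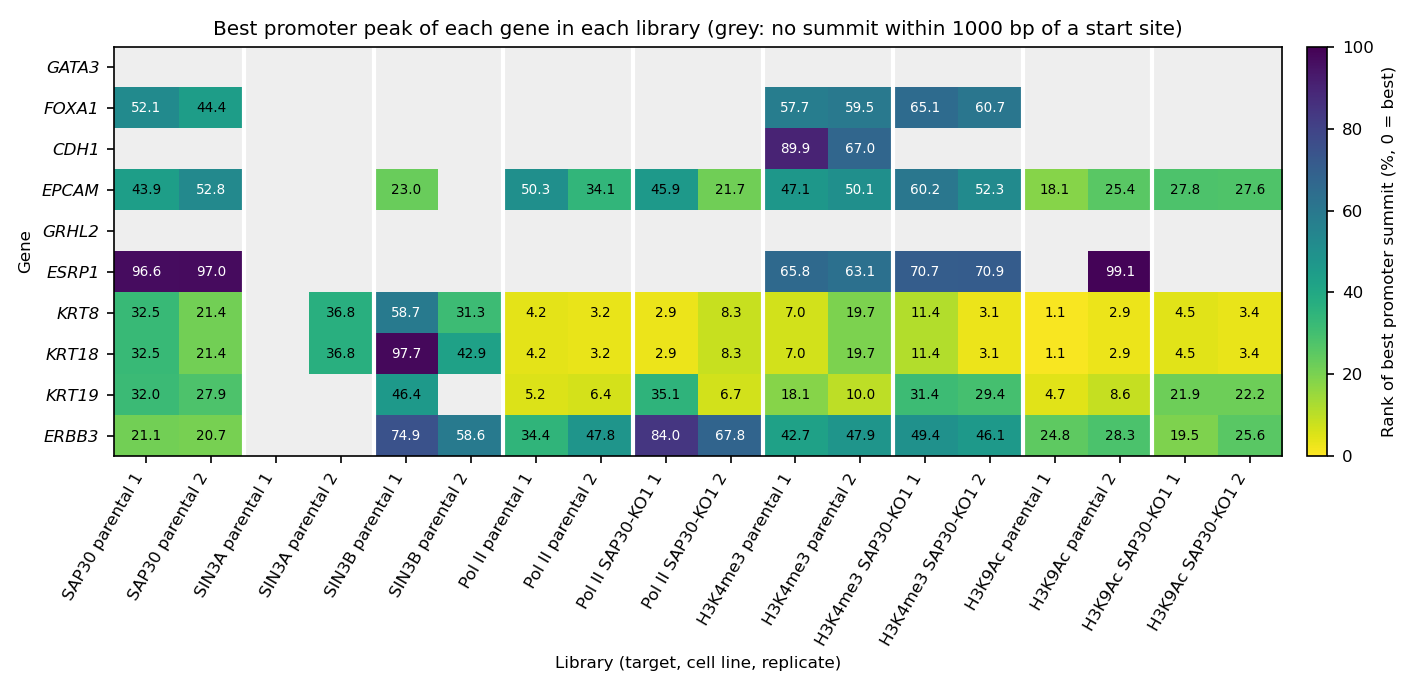
Rank (%, 0 = best) of the best summit within 1000 bp of a start site for each of the 10 genes in each of the 18 libraries, with grey where a library had no such summit. KRT8, KRT18 and KRT19 rank at 18.1% or better in the first H3K4me3 library, GATA3 and GRHL2 are grey throughout, and the SIN3A columns are almost empty.

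Among the genes with a peak, the epithelial promoters ranked low for SAP30. The SAP30 summit of ERBB3 ranked at 21.1% and 20.7%, the best of the 10. That of KRT8 and KRT18, the same summit beside the KRT18 starts and far from the canonical KRT8 start, ranked at 32.5% and 21.4%. That of KRT19 ranked at 32.0% and 27.9%. EPCAM had 43.9% and 52.8%, and FOXA1 52.1% and 44.4%. The best ESRP1 summits, at a different place in each library, ranked at 96.6% and 97.0%. ERBB3 stood above the others in both libraries, KRT8 with KRT18 overlapped KRT19, EPCAM overlapped FOXA1, and ESRP1 stood below all of them. The median over the 12298 genes with SAP30 in both libraries was 17.1% with quartiles of 8.53% and 28.4%, so each of the 7 genes ranked worse than the median gene. Kept to the better-ranked 50% of each list, 4 of 10 genes had SAP30 in both libraries.

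Pol II and H3K9Ac ranks differed widely among the genes that had them in both parental libraries. The Pol II summit of KRT8 and KRT18 ranked at 4.17% and 3.2%, that of KRT19 at 5.18% and 6.39%, that of ERBB3 at 34.4% and 47.8%, and that of EPCAM at 50.3% and 34.1%. The H3K9Ac summit ranked for KRT8 with KRT18 at 1.1% and 2.92%, for KRT19 at 4.67% and 8.62%, for EPCAM at 18.1% and 25.4%, and for ERBB3 at 24.8% and 28.3%. The keratins stood above EPCAM and ERBB3 in both measures in every parental library, and EPCAM and ERBB3 overlapped in both. Over all genes with a peak in both parental libraries, Pol II had a median of 25.5% and H3K9Ac one of 12.2%.

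GATA3, the luminal transcription factor (chromosome 10, 8087341 to 8117161, plus strand), had no summit within 1000 bp of its 2 start sites at 8096651 and 8096773. The nearest SAP30 summits lay 9113 bp and 9081 bp away. They belong to a cluster of summits of 15 libraries between 8087304 and 8088895, across the upstream end of the annotated gene. That cluster spans the first base, 8087341, of a longer GATA3 transcript, GATA3-205, which is not among the basic transcripts used for start sites. Counting the starts of all annotated transcripts, GATA3 had a promoter peak there, and 1 of the 10 genes was left with none. In this cluster H3K9Ac ranked at 30.8% and 22.1% in parental and 24.7% and 27.4% in SAP30-KO1 libraries, and H3K4me3 at 47.4% and 49.6% against 54.3% and 49.0%. Pol II ranked at 80.8% and 71.9% in parental cells and was listed in 1 SAP30-KO1 library, at 83.2%. SAP30 ranked at 41.1% and 33.2% and SIN3B at 42.7% and 76.0%, and SIN3A had no summit nearer than 235805 bp. A second cluster, 14872 to 15766 bp past the canonical start and intronic, held SAP30 (45.9% and 57.1%), SIN3B (74.9% and 70.6%) and H3K9Ac (32.1% and 36.3%, and 20.7% and 31.4% in SAP30-KO1 cells) without H3K4me3 or Pol II.

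GRHL2, a factor that maintains epithelial junctions (chromosome 8, 102504667 to 102681954, plus strand), was bare by the same measure but marked just outside it. H3K4me3 summits lay 1763 and 1754 bp past the canonical start in parental libraries, in an intron, at ranks of 55.6% and 59.4%. In SAP30-KO1 libraries they lay at 1703 and 1719 bp with ranks of 69.7% and 71.2%. H3K9Ac lay at 1734 and 1712 bp and ranked at 22.3% and 20.4% in parental libraries, and at 45.0% and 35.4% in SAP30-KO1 libraries. For both marks the libraries of the lines did not overlap, with the knockout worse. These summits fall outside the promoter window, and with a window of 3000 bp limma did not call the gene for H3K4me3 (adjusted p = 0.649) or H3K9Ac (adjusted p = 0.507). Pol II was listed 1666 and 1491 bp past the start in parental cells (90.7% and 69.1%) and in 1 SAP30-KO1 library (72.3%), and SAP30 in 1 library (94.9%). H3K9Ac had 12 to 14 summits in the gene and the 50 kb around it in parental libraries and 13 in each SAP30-KO1 library, forming 7 clusters present in both parental libraries. SIN3A had none within 50 kb.

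FOXA1, a pioneer factor of luminal cells (chromosome 14, 38058757 to 38065264, minus strand), had SAP30 and H3K4me3 at its start and nothing else. The SAP30 summits lay 201 and 252 bp past the start in the gene. H3K4me3 ranked at 57.7% and 59.5% in parental and 65.1% and 60.7% in SAP30-KO1 libraries, both worse in the knockout than in either parental library. The nearest Pol II summits were 397361 and 397293 bp away in parental cells, and no H3K9Ac lay within 1000 bp in either line. TTC6 starts from the other strand within 1000 bp of these summits, so they cannot be assigned to 1 of the genes. The same pattern over the 9 groups was found at 33 protein-coding genes (0.164%), FOXA1 included. H3K4me3 was also listed in all 4 libraries 11757 to 11445 bp past the start, beyond the end of the gene, with weak SAP30 (87.6% and 98.8%), and in all 4 libraries at −4589 to −4691 bp, on the upstream side.

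CDH1 (chromosome 16, 68771195 to 68869440, plus strand) had only H3K4me3 at its promoter, and only in parental cells. The summits lay 156 and 77 bp past the start in the exon of the 5′ UTR, with ranks of 89.9% and 67.0%. Neither SAP30-KO1 library listed one, and the nearest H3K4me3 summit there was 91415 and 91251 bp away. The peak was weak: in parental replicate 1 its score was 5.3 on the −log10 q scale and its place 21639 of 24079 summits, beyond the 20735 summits of the shortest of the 4 H3K4me3 lists. With all 4 lists limited to that length the peak was no longer in both parental libraries, and the gene did not count as having lost it. The promoter had no SAP30, SIN3A, SIN3B, Pol II or H3K9Ac in any library. Its parental pattern with the loss was shared by 73 protein-coding genes (0.363%).

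The gene body of CDH1 was not empty. SAP30 had 4 summits in it in each library. They lay in introns, 4542 to 4627 bp (54.1% and 74.3%), 6913 to 8023 bp (50.2% and 57.2%), 52540 to 54281 bp (34.8% and 48.5%) and 55579 to 56447 bp (44.7% and 51.7%) past the start. All but the first of these clusters also held H3K9Ac in both libraries of both lines, and none held SIN3A, SIN3B, Pol II or H3K4me3. At 6913 to 8023 bp H3K9Ac ranked at 95.0% and 80.5% in parental and 67.2% and 47.5% in SAP30-KO1 libraries. H3K9Ac clusters at −5566 to −4669 bp (89.8% and 78.2%) and at 23927 to 23930 bp (50.2% and 89.1%) were present in both parental and neither SAP30-KO1 library. Upstream, a cluster at −30048 to −29334 bp held SAP30, SIN3B, Pol II and H3K9Ac in every library profiled for them, with H3K9Ac at 42.1% and 33.1% in parental and 36.7% and 37.3% in SAP30-KO1 cells.

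**Figure D3:**
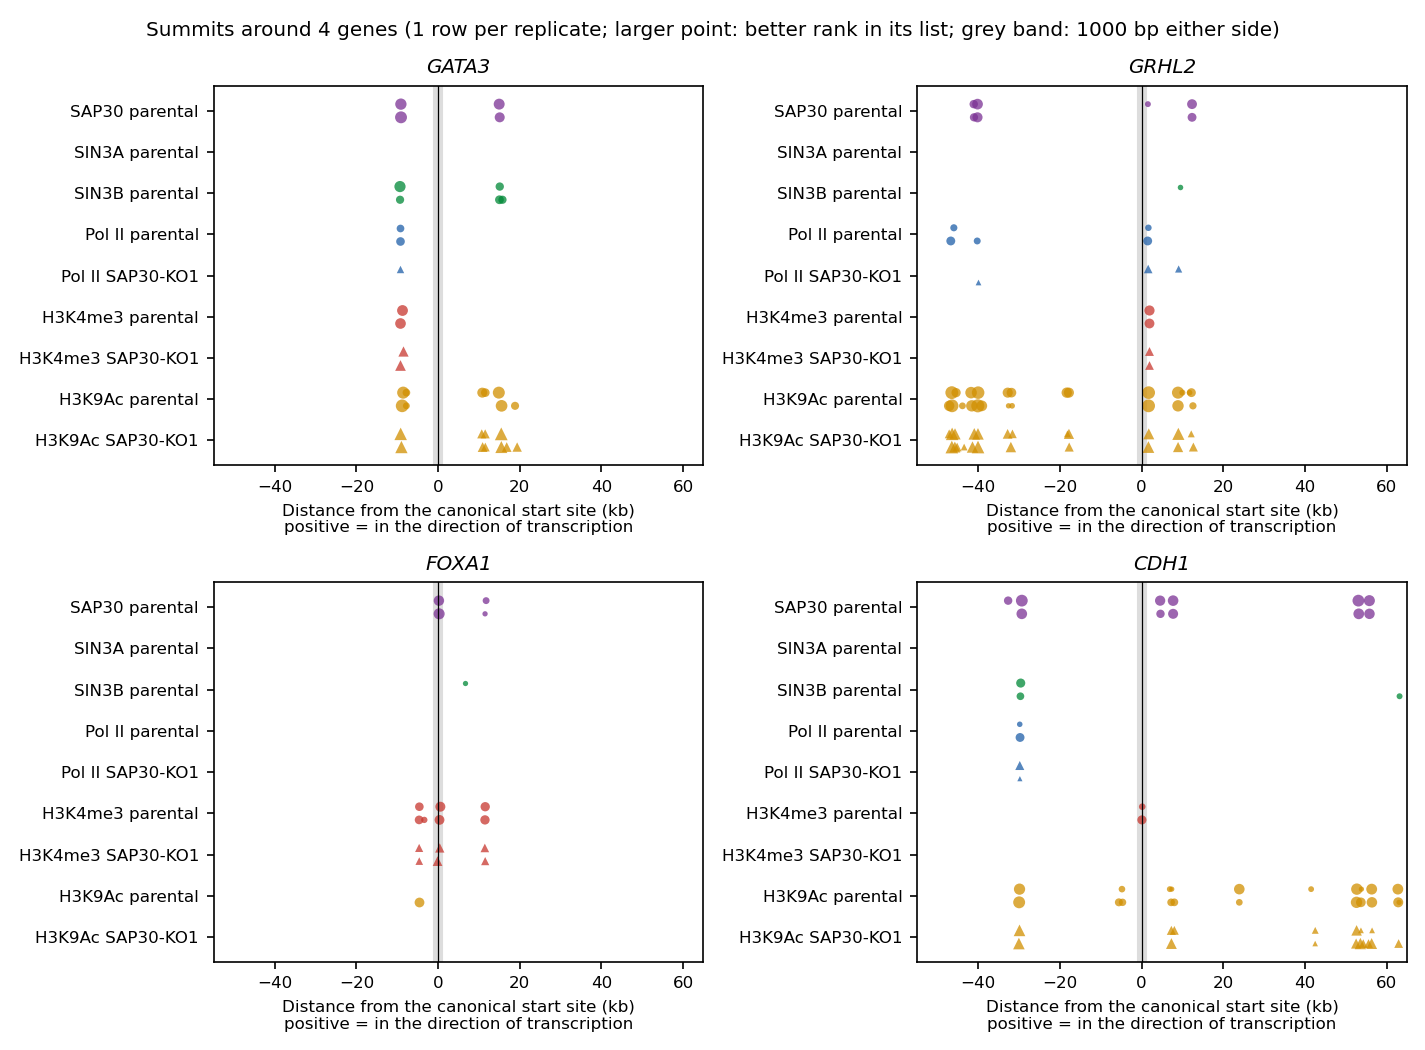
Summits around GATA3, GRHL2, FOXA1 and CDH1 by distance (kb) from the canonical start site, for the 9 groups with 1 row of points per replicate (circles parental, triangles SAP30-KO1) and larger points for better ranks. The grey band of 1000 bp either side of the start is empty at GATA3 and GRHL2, holds SAP30 and H3K4me3 at FOXA1, and at CDH1 holds H3K4me3 in the 2 parental libraries only.

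EPCAM (chromosome 2, 47572297 to 47614740, plus strand) had marks at both of its separate start sites. At the upstream start, 47572297, H3K9Ac ranked at 18.1% and 25.4% in parental and 27.8% and 27.6% in SAP30-KO1 libraries, and Pol II at 50.3% and 34.1% against 45.9% and 21.7%. At the canonical start, 47596450, H3K9Ac ranked at 20.5% and 26.2% against 29.0% and 31.0%, and Pol II at 69.4% and 63.2% in parental cells and at 56.8% in 1 SAP30-KO1 library. H3K4me3 ranked at 49.3% and 50.1% against 60.2% and 52.3% upstream, and at 47.1% and 52.4% against 60.7% and 58.0% at the canonical start. Both histone marks ranked worse in the knockout at both sites without overlap. SAP30 was present at both, at 43.9% and 52.8% upstream and 47.6% and 80.3% at the canonical start, and SIN3B was listed upstream only, in 1 library (23.0%). EPCAM-DT, a noncoding gene, starts beside the upstream site on the other strand. Between the start sites, an intronic cluster at −15146 to −13180 bp from the canonical start held SAP30 (39.4% and 55.2%) and H3K9Ac, which ranked at 25.5% and 44.3% in parental and 68.7% and 60.4% in SAP30-KO1 libraries, again without overlap. This intronic site was not part of a promoter window and the difference was not tested.

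ESRP1 (chromosome 8, 95653302 to 95719694, plus strand) resembled FOXA1 in having H3K4me3 without Pol II. H3K4me3 ranked at 65.8% and 63.1% in parental and at 70.7% and 70.9% in SAP30-KO1 libraries, with no overlap. SAP30 within the window was at the bottom of its lists, but stronger SAP30 summits lay just outside, 1281 and 1262 bp past the canonical start, at 47.1% and 65.7%. H3K9Ac was listed in parental replicate 2 only, at 99.1%. That pattern was found at 22 protein-coding genes (0.109%). H3K4me3 in both parental libraries with neither Pol II nor H3K9Ac in either was found at 2 of 10 genes, CDH1 and FOXA1, and at 1.83% of all protein-coding genes. The fuller patterns were more common: 10.6% of genes had that of KRT8 and KRT18, 7.34% had that of ERBB3, and EPCAM and KRT19 had the same pattern, found at 367 genes.

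KRT8 and KRT18, which encode the keratin pair of simple epithelia, lie head to head (chromosome 12, 53290971 to 53343738 on the minus strand and 53342655 to 53346690 on the plus strand). Long KRT8 transcripts start at 53343608 to 53343658, within 1000 bp of the KRT18 starts at 53342655 to 53342902. Both genes therefore take their best SAP30, SIN3A, H3K9Ac, H3K4me3 and Pol II summits from the same place and were not independent. At the canonical KRT8 start, 53298860, Pol II ranked at 9.09% and 12.8% in parental and 17.1% and 16.3% in SAP30-KO1 libraries, again without overlap, H3K9Ac at 5.95% and 10.8% against 9.04% and 10.3%, and H3K4me3 at 31.2% and 36.8% against 40.2% and 27.9%. SAP30 was listed within 1000 bp of this start in replicate 2 only (55.2%). Better-ranked SAP30 summits (28.0% and 33.3%) lay further into the gene, outside the window. The canonical start had its own peaks, ranked below those at the KRT18 end for Pol II and H3K9Ac in every library. Between them, a cluster at −19216 to −22947 bp around a further KRT8 start, 53320253, held weak parental H3K4me3 (91.2% and 96.3%) that no SAP30-KO1 list had, with H3K9Ac at 19.0% and 29.1% in parental and 45.0% and 27.2% in SAP30-KO1 libraries. Within 1000 bp of that start H3K4me3 was listed in parental replicate 1 only, so this was not a lost promoter peak by the rule used. At the shared end H3K4me3 ranked at 7.03% and 19.7% in parental and 11.4% and 3.06% in SAP30-KO1 libraries, which overlapped.

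Whether promoter peaks were lost or gained in SAP30-KO1 cells was asked next. A peak was lost when both parental and neither knockout library had it, and gained in the opposite case. For H3K4me3, 1 of the 8 genes with it in both parental libraries lost it, CDH1, where 1.43% of all genes with it did so, and none of the 10 gained it, where 0.299% of genes without it did. For Pol II none of 5 was lost and none gained, beside 2.33% and 0.337% of all genes. For H3K9Ac none of 5 was lost and none gained, beside 0.689% and 0.908%. Without parental replicate 1, ESRP1 counted as having lost H3K9Ac.

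Ranks were then compared over all genes with a promoter peak in the 4 libraries of a mark, by limma on the normal score of the rank with Benjamini-Hochberg adjustment. For Pol II, limma called none of 10706 genes (0.0%), with 828 at an unadjusted p under 0.05. For H3K4me3 it called none of 12531 (0.0%), with 991 at an unadjusted p under 0.05. For H3K9Ac it called 2 of 12048 (0.0166%), with 968 at an unadjusted p under 0.05. No other tool was run. The 2 called genes were ARID1B, a chromatin remodelling subunit, and STOM, a membrane protein, both better in the knockout and both named after their values were seen. Not all of the 10 genes could be fitted. The Pol II fit held 5 of them, the H3K4me3 fit 7 and the H3K9Ac fit 5. GATA3, GRHL2 and CDH1 were in none of these fits, so limma gave no result there. None of the fitted genes of the 10 was called, and their adjusted p from limma lay between 0.402 and 0.945. With 2 libraries against 2, an exact permutation test of 1 gene cannot go below 0.33.

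Without a call, the order of the libraries was described. For Pol II, 2 of the 5 genes with a peak in all 4 libraries ranked worse in both SAP30-KO1 than in both parental libraries, and none ranked better, beside 24.2% and 15.4% of all genes. For H3K4me3 these were 4 of 7 and none, beside 28.1% and 11.5%. For H3K9Ac they were 4 of 5 and none, beside 22.1% and 16.4%. The 4 H3K9Ac genes included KRT8 and KRT18, which shared 1 peak. The median change of the listed genes was 1.89 rank points in Pol II (1.48 over all genes tested), 4.29 in H3K4me3 (2.09) and 1.94 in H3K9Ac (0.309). Each median was worse in the knockout, but the genes differed in direction. Their changes ran from −8.41 to 34.8 points in Pol II, −6.13 to 16.4 in H3K4me3 and −4.0 to 15.4 in H3K9Ac. The shared peak of KRT8 and KRT18 entered each median for both genes, and its change was itself the median in Pol II and H3K9Ac.

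**Figure D4:**
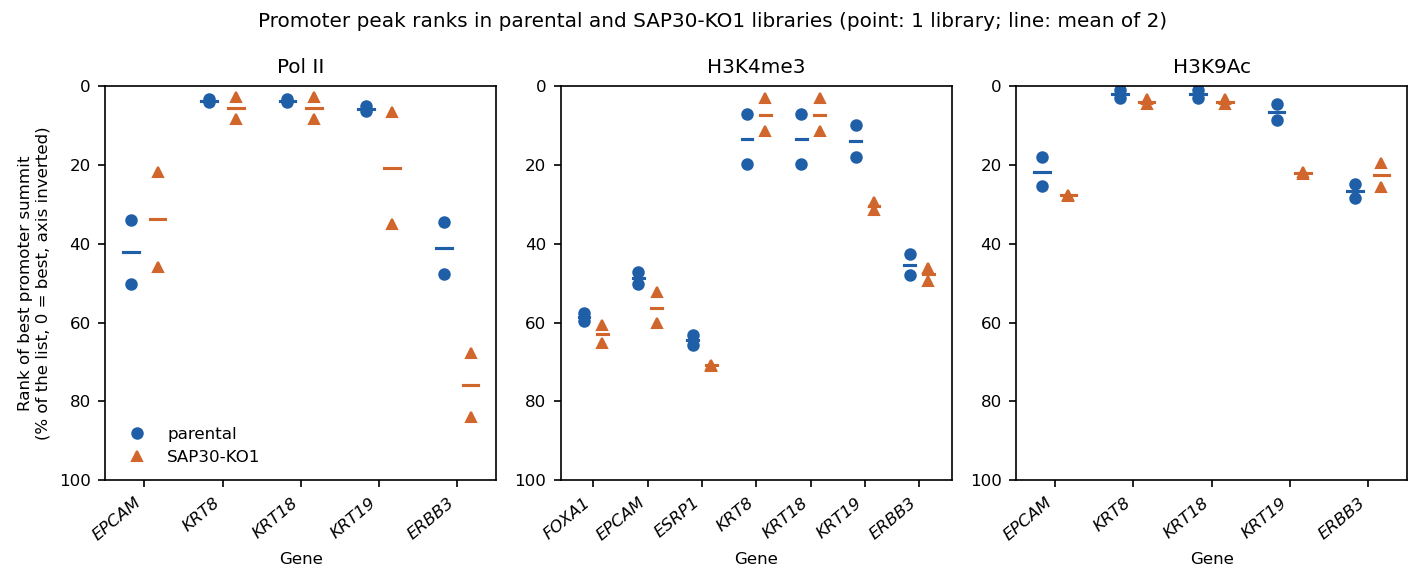
Rank (%, inverted axis, 0 = best at the top) of the best promoter summit in each parental (circles) and SAP30-KO1 (triangles) library for the genes with a peak in all 4 libraries of a mark, with a line at the mean of 2. KRT19 lies lower in SAP30-KO1 libraries for all 3 marks and ERBB3 for Pol II, while KRT8 and KRT18 overlap between the lines for Pol II and H3K4me3.

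KRT19 (chromosome 17, 39679869 to 39684560, minus strand) was the gene of the 10 that ranked worse in both SAP30-KO1 libraries for each of the 3 marks. Its H3K9Ac summit ranked at 4.67% and 8.62% in parental and 21.9% and 22.2% in SAP30-KO1 libraries. That change of 15.4 points lay at percentile 98.3 of the changes of all genes, with a normal score change of −0.75 ± 0.187 (SE) and an adjusted p of 0.402 from limma. H3K4me3 ranked at 18.1% and 10.0% against 31.4% and 29.4% (percentile 97.1, adjusted p = 0.595 from limma). Pol II ranked at 5.18% and 6.39% against 35.1% and 6.72%, so that the mean difference came mainly from SAP30-KO1 replicate 1 (adjusted p = 0.706 from limma). The summits lay at the start in every library, 26 to 67 bp past it for Pol II. Genes of the long arm of chromosome 17 had a median change of 3.47 points in Pol II, 3.66 in H3K4me3 and 1.16 in H3K9Ac, worse in the knockout, whose part in the result was not tested. Upstream of KRT19, a cluster at −19415 to −20684 bp held SAP30 (39.0% and 32.0%) and H3K9Ac (19.6% and 14.5% in parental, 18.9% and 27.9% in SAP30-KO1 libraries), with parental H3K4me3 at 77.9% and 73.7% that no SAP30-KO1 list had. On the other side of the start, 1957 to 7076 bp past it, a cluster ran from inside KRT19 across its far end to the neighbouring keratin gene KRT15. It held SAP30 (57.4% and 51.7%) and H3K9Ac, at 30.8% and 36.6% in parental and 56.4% and 36.3% in SAP30-KO1 libraries.

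ERBB3 (chromosome 12, 56470583 to 56497289, plus strand) had a single pronounced difference, in Pol II. Its best Pol II summit ranked at 34.4% and 47.8% in parental and at 84.0% and 67.8% in SAP30-KO1 libraries. These summits lay −801 and −88 bp from the canonical start in parental and −760 and −29 bp in SAP30-KO1 libraries. The replicates of a line were thus ranked at different places. The groups did not overlap, and the change of 34.8 points lay at percentile 98.9 of all genes, with a normal score change of −0.96 ± 0.299 (SE) and an adjusted p of 0.644 from limma. Its H3K4me3, at 42.7% and 47.9% against 49.4% and 46.1%, and its H3K9Ac, at 24.8% and 28.3% against 19.5% and 25.6%, overlapped between the lines. The promoters of PA2G4, RPL41, ZC3H10, ESYT1 and RPS26 lie within 50 kb. The cluster at PA2G4 had Pol II at 1.7% and 5.11% in parental and 9.55% and 1.84% in SAP30-KO1 libraries, and that at RPS26 at 5.32% and 17.3% against 7.13% and 10.1%, and that at ESYT1 at 26.9% and 21.9% against 11.9% and 36.5%, all of which overlapped. That at RPL41 and ZC3H10 ranked at 3.15% and 2.39% in parental and 11.7% and 3.55% in SAP30-KO1 libraries, worse in the knockout without overlap as at ERBB3, and these differences were not tested. The median change on the long arm of chromosome 12 was 1.89 points for Pol II.

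**Figure D5:**
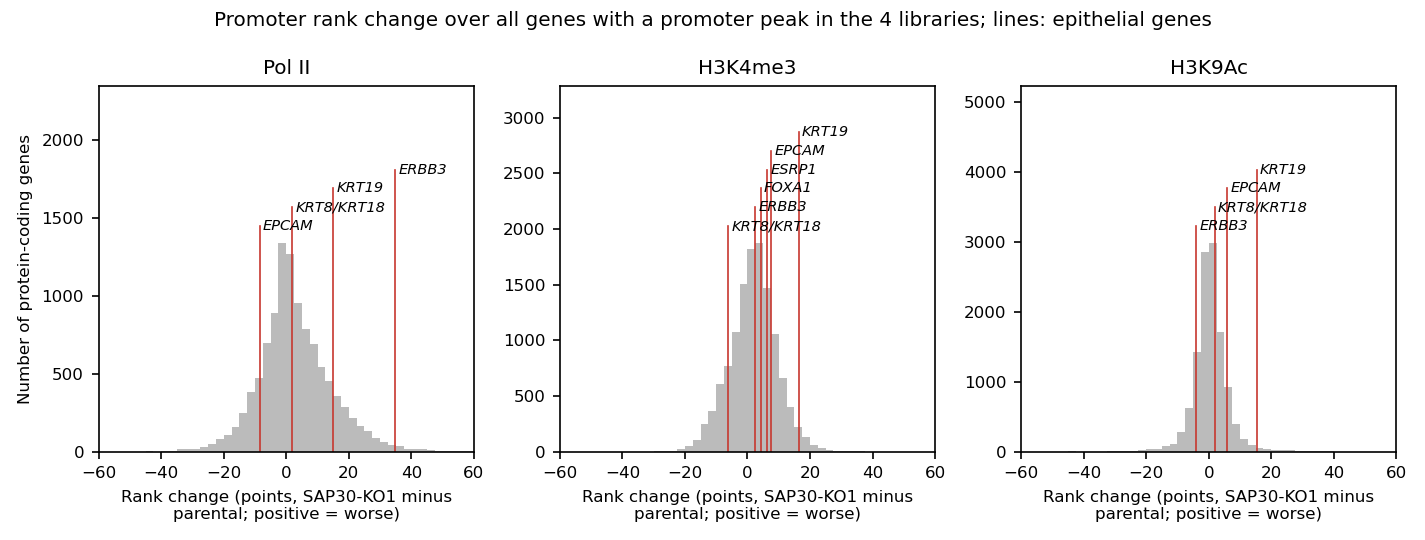
Number of protein-coding genes by change of promoter rank (points, SAP30-KO1 minus parental, positive = worse) for each mark, with red lines at the genes of the list. ERBB3 lies at 34.8 points for Pol II, and KRT19 at 16.4 points for H3K4me3 and 15.4 for H3K9Ac, in the right tail of each distribution.

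The long arm of chromosome 16, which carries CDH1, had a median change of 8.29 points in Pol II, 4.77 in H3K4me3 and 1.78 in H3K9Ac, worse in the knockout. The promoter of TANGO6, beyond the far end of CDH1 and named here after its values were seen, ranked at 19.0% and 20.3% for H3K4me3 in parental and 40.5% and 37.0% in SAP30-KO1 libraries, and at 5.01% and 5.94% against 13.1% and 11.6% for H3K9Ac. Its Pol II, at 23.8% and 17.3% against 18.9% and 38.8%, overlapped between the lines. Their part in the loss at CDH1 was not tested.

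Of 30 further epithelial and luminal genes, 16 had SAP30 at the promoter in both parental libraries, where 61.2% of all genes had it. SIN3B was present at 10 (51.7% of all genes) and SIN3A at 5 (31.5%). H3K4me3 was present at 21 (63.8%), H3K9Ac at 21 (61.4%) and Pol II at 12 (57.7%). No peak in any list was found at 4 (32.2%). LLGL2, a polarity gene, had Pol II at 69% and 68.7% in parental libraries and none in SAP30-KO1 libraries. AGR2, a luminal secretory protein, had H3K4me3 at 75.7% and 79.5% in parental libraries only. ST14, an epithelial serine protease, had H3K4me3 (74% and 70.7%) and H3K9Ac (80% and 69%) in parental libraries only. ESR1, the estrogen receptor, had H3K9Ac in SAP30-KO1 libraries only, at 69.3% and 59.9%, with H3K4me3 in all 4. Lost peaks numbered 1 of 12 for Pol II, 2 of 21 for H3K4me3 and 1 of 21 for H3K9Ac, beside 2.33%, 1.43% and 0.689% of all genes. H3K9Ac was gained at 1 of 8 genes without it, beside 0.908%. The peaks that came or went were, like that of CDH1, in the worse-ranked part of their lists. The limma fit of Pol II held 10 of the 30 genes, that of H3K4me3 19 and that of H3K9Ac 18, and called none of them. A gene that lost or gained a peak was not fitted in that mark, so its change was not tested.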

How the data were processed

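Per the labels and the methods of the study, chromatin was cross-linked with formaldehyde, sonicated and immunoprecipitated, and the submitters' processing notes name Bowtie2 2.3.3.1, Picard, FastQC 0.11.2 and MACS2 2.1.0. The authors called peaks in each library by itself and deposited 1 list of summits per library, on GRCh37. The deposited score is the −log10 of a q-value, with a lowest value of 1.30, so weaker peaks are absent. The control behind each list and the sequencing depth are not given in the sources used here.

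Each summit was ranked within its list (0% best). The start sites used belong to basic transcripts of protein-coding genes (GENCODE release 44). Ranks were compared by limma 3.58.1 in R 4.3.3 on normal scores, with Benjamini-Hochberg adjustment over all genes with a promoter summit in the 4 libraries of a mark and a threshold of 0.05. The fit was tested on simulated data. Base composition, motifs and sequences were read from GRCh37. The 10 genes and the other lists were chosen with earlier results of these data known. All 10 are named, further epithelial genes where a peak was lost or gained, and neighbours where a summit within 50 kb lay at their start, except for some items that are not reported here. The labels do not say whether same-numbered parental and knockout libraries were prepared together. Their deviations correlated by 0.0137 (Pol II), −0.0092 (H3K4me3) and −0.00562 (H3K9Ac), and the main fit used no replicate block. Alternatives were other windows, start sites and list lengths, the score in place of the rank, absent peaks at the worst rank, the arm median subtracted, a replicate block and each replicate left out. Starts of all annotated transcripts were added after seeing the data.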

Additional observations from a re-analysis of the deposited data

How the results depend on the processing

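Depth is unknown and each list ends at its own significance threshold, so an absent peak was not detectable in that library and is not shown to be absent from the cells. In all, 214 recomputed values kept their direction and side of the threshold or, for counts, stayed close to the reported count. A further 24 counts moved away from the reported count, and 6 changes of single genes reversed, none of them called. Single-gene changes that passed the threshold only in an alternative are given below. The peak shared by KRT8 and KRT18 entered these numbers for both genes. For Pol II, the normal score change of EPCAM was 0.242 and lay between −0.0981 (without SAP30-KO1 replicate 2) and 0.581 with 1 library left out, and its change on the log2 score was −1.07. That of KRT8 and KRT18 was −0.148 and lay between −0.406 and 0.111 (without SAP30-KO1 replicate 2). For H3K4me3, that of ERBB3 was −0.0614, lay between −0.127 and 0.00403 (without parental replicate 1) with 1 library left out, and was 0.0153 with the arm median subtracted. Counts of the 10 genes with a peak in both parental libraries moved as follows. With the better-ranked 50% of each list they were 4 for SAP30, 0 for SIN3B and 4 for H3K4me3. Within 500 bp the H3K4me3 count was 5. Leaving out each replicate in turn gave 0 to 2 genes for SIN3A (KRT8 and KRT18, with 1 shared summit) and 3 to 5 for SIN3B. Genes with no peak numbered 1 within 3000 bp and 1 with the starts of all annotated transcripts, which was chosen after seeing the data. With H3K4me3 lists of equal length 0 genes lost a peak. For H3K9Ac, leaving out 1 library gave 0 to 1 genes lost or gained, with ESRP1 lost without parental replicate 1.

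Over all genes, limma called 7626 Pol II, 269 H3K4me3 and 20 H3K9Ac promoters on the log2 score, where the median change over genes was −1.55, −0.16 and 0.21. All 7626 Pol II calls were lower in SAP30-KO1. With absent peaks set to the worst rank the counts were 262, 185 and 128, and within 3000 bp 1 for H3K9Ac. The replicate block gave 1 call for Pol II, where the fit without it gave 0, and changed no other count. Leaving out 1 library gave 0 to 703 calls for Pol II (703 without SAP30-KO1 replicate 1, 181 without SAP30-KO1 replicate 2) and 11 to 35 for H3K9Ac. Of the 5 genes fitted for Pol II, all but EPCAM were called on the log2 score (KRT8 and KRT18 at −1.65, KRT19 at −2.33 and ERBB3 at −2.63), and KRT19 and ERBB3 without SAP30-KO1 replicate 2 (normal score changes of −1.19 and −1.22). Over the alternatives the adjusted p of limma lay between 0.00144 and 1.0 for KRT19 and between 0.000509 and 1.0 for ERBB3. With absent peaks at the worst rank, CDH1 was not called for H3K4me3 (adjusted p = 0.0592 from limma). The cause was not tested.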
